A study of Macaca fascicularis with 32 samples.

Results

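Potassium channel genes are read here as every gene of the deposited annotation whose symbol starts with KCN: 87 of 22316 genes, of which 16297 carry a symbol. By the structural family that the symbol stands for, 28 encode pore subunits of voltage-gated channels, 10 the electrically silent voltage-gated subunits that work only inside a mixed channel, 8 the calcium- or sodium-activated pores with the related pH-gated KCNU1 among them, 13 the inward rectifiers, 15 the two-pore-domain leak channels, and 13 accessory subunits or regulators. Their RNA was followed by cell class, brain region and treatment in single nuclei from cynomolgus macaques, the species of the organism label, although the extraction text of the labels names the rhesus macaque. The series' title describes a monkey model of Parkinson's disease (PD) made with an adeno-associated virus (AAV) vector together with poly(ADP-ribose), and the labels call the other group CT. The substantia nigra (SN), the putamen (PUT) and the caudate (CN, written caudal nucleus in the labels) were sampled from both groups. Promoter, injection site, age, sex and interval after treatment, and what the CT animals received, were not given in the sources used here. Of 32 labelled samples, the CT striatum supplied 8 per region and every other region and treatment 4, but the counts come as 6 matrices, 1 per region and treatment, with no map from nuclei to samples. Each matrix was therefore 1 library, there was no replicate and no test, and treatment cannot be told apart from library in any PD and CT comparison.

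Potassium channels let potassium leave a cell, pull the membrane toward rest and so set resting potential, spike width, firing rate and the recovery after a spike. Voltage-gated pores open on depolarisation: the KCND pores carry the fast A-type current, the KCNC pores the rapid repolarisation of fast-spiking interneurons, the KCNQ pores the slow M current, and the KCNH pores the ether-à-go-go currents. The KCNIP proteins bind KCND pores and tune their inactivation, and the KCNAB proteins do the same for KCNA pores. Inward rectifiers include the channels through which G-protein-coupled dopamine receptors silence dopamine neurons. The KCNN and KCNMA pores turn calcium entry into an afterhyperpolarisation, and the leak channels of the KCNK family hold the resting potential of neurons and microglia. In glia, potassium channels also clear the potassium that neurons release.

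Depth ranged from 18692617 to 36723856 unique molecular identifiers (UMIs) and 7702 to 10389 barcodes per library, and 7173 to 9698 nuclei per library were retained. The median nucleus held 1245 and 1170 UMIs in the SN libraries and 1959 to 3022 in the striatal ones. Members took 0.69% to 1.45% of all UMIs, and 76 to 82 of the 87 were detected in a library. Nuclei were clustered without the members and put into classes by markers: dopaminergic neurons, direct, indirect and eccentric spiny projection neurons (SPNs, the output neurons of the striatum), other neurons, oligodendrocytes, oligodendrocyte precursor cells (OPCs), astrocytes, microglia or macrophages, vascular cells, and T or NK lymphocytes. Markers were summed only where both libraries of a region held at least 100 nuclei of a class. Vascular cells, lymphocytes and SN astrocytes were therefore not summed. Classes were named from the same marker lists, so these sums are no independent check. Summed markers of a class were highest in that class for dopaminergic neurons (2538 and 2460 CPM, that is UMIs of a gene scaled to 1000000 UMIs, against at most 250.5 in any other class so summed), oligodendrocytes (11090 to 18120 against at most 3115), OPCs (14230 to 15430 against at most 3091), astrocytes (18420 to 20060 against at most 2213) and microglia (3406 to 4869 against at most 99.31). The direct SPN markers summed to 256.1 to 369.5 CPM in direct SPNs but also to 399.5 in CT dopaminergic neurons, and the indirect SPN markers to 547.8 to 750.6 CPM in indirect SPNs against at most 300.4 elsewhere. Between 248 and 964 nuclei per library carried markers of 2 lineages and 10 to 537 had no clear class, and neither kind entered a class. Of the 537 in SN PD, 520 lay in 1 cluster, with GPNMB, F13A1 and CD74 among its top genes. Any pair of libraries shared 14 to 38 barcode sequences.

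A level is given in CPM of all UMIs of a class in a library, and an interval is an exact 95% interval that covers counting error only. CPM values are not scaled by gene length, so levels are compared for 1 gene across classes and libraries, never between genes. The summed level of the members followed neuronal identity. It was 15503 to 18223 CPM in direct SPNs, 13454 to 16146 CPM in indirect SPNs, 12562 to 14436 CPM in dopaminergic neurons, 10387 to 16538 CPM in other neurons and 10717 to 12170 CPM in eccentric SPNs. OPCs, at 9247 to 11823 CPM, overlapped the neuronal range, while microglia or macrophages (3959.8 to 6753 CPM), oligodendrocytes (2375 to 4647 CPM) and astrocytes (1792 to 3521 CPM) lay below every neuronal library. The 3 leading genes of a library held 60.8% to 67.3% of the sum in direct SPNs and 66.3% to 68.5% in dopaminergic neurons, but 42.1% to 45.5% in eccentric SPNs and 39.96% to 47.3% in oligodendrocytes.

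**Figure D1:**
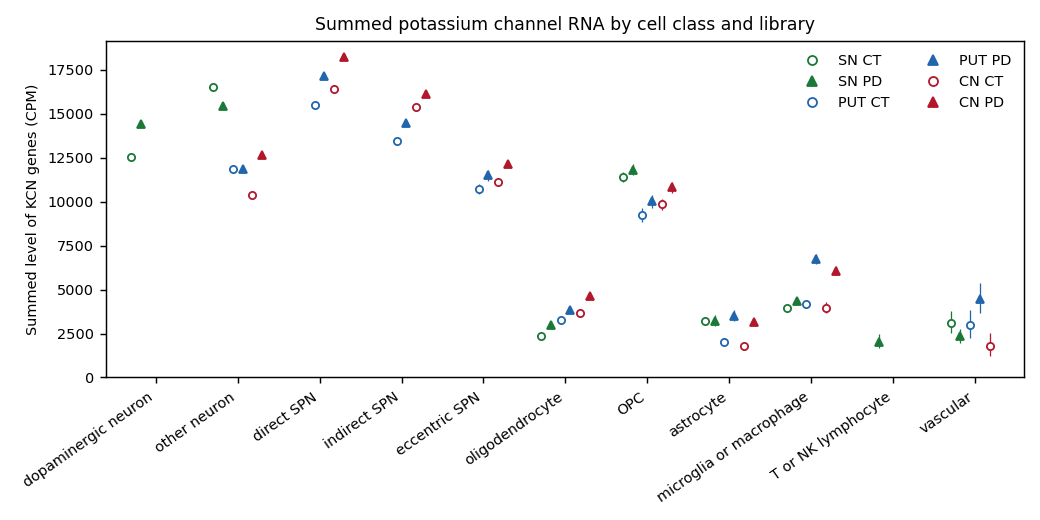
Summed CPM of the 87 potassium channel genes (y axis) in each cell class (x axis), 1 point per library with its exact 95% counting interval. Neurons and OPCs sit at 9247 CPM or more, and oligodendrocytes and astrocytes at or below 4647 CPM.

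In 12 of the 87 members the class with the highest median lay above every other class in every library, over at least 2 libraries of that class. This rule was applied to the members only. The share of all genes that meet it was not computed, so the count cannot be read as high or low. They were KCNJ6, KCND3, KCNN3 and KCNG4 in dopaminergic neurons, KCNC1 and KCNC2 in other neurons, KCNH3 in eccentric SPNs, KCNK1, KCNK10 and KCNMB4 in oligodendrocytes, and KCNK13 and KCNK6 in microglia or macrophages. Another clustering, filter or normalization gave 12 to 16 such members. The other members were shared between classes or too sparse to order.

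**Figure D2:**
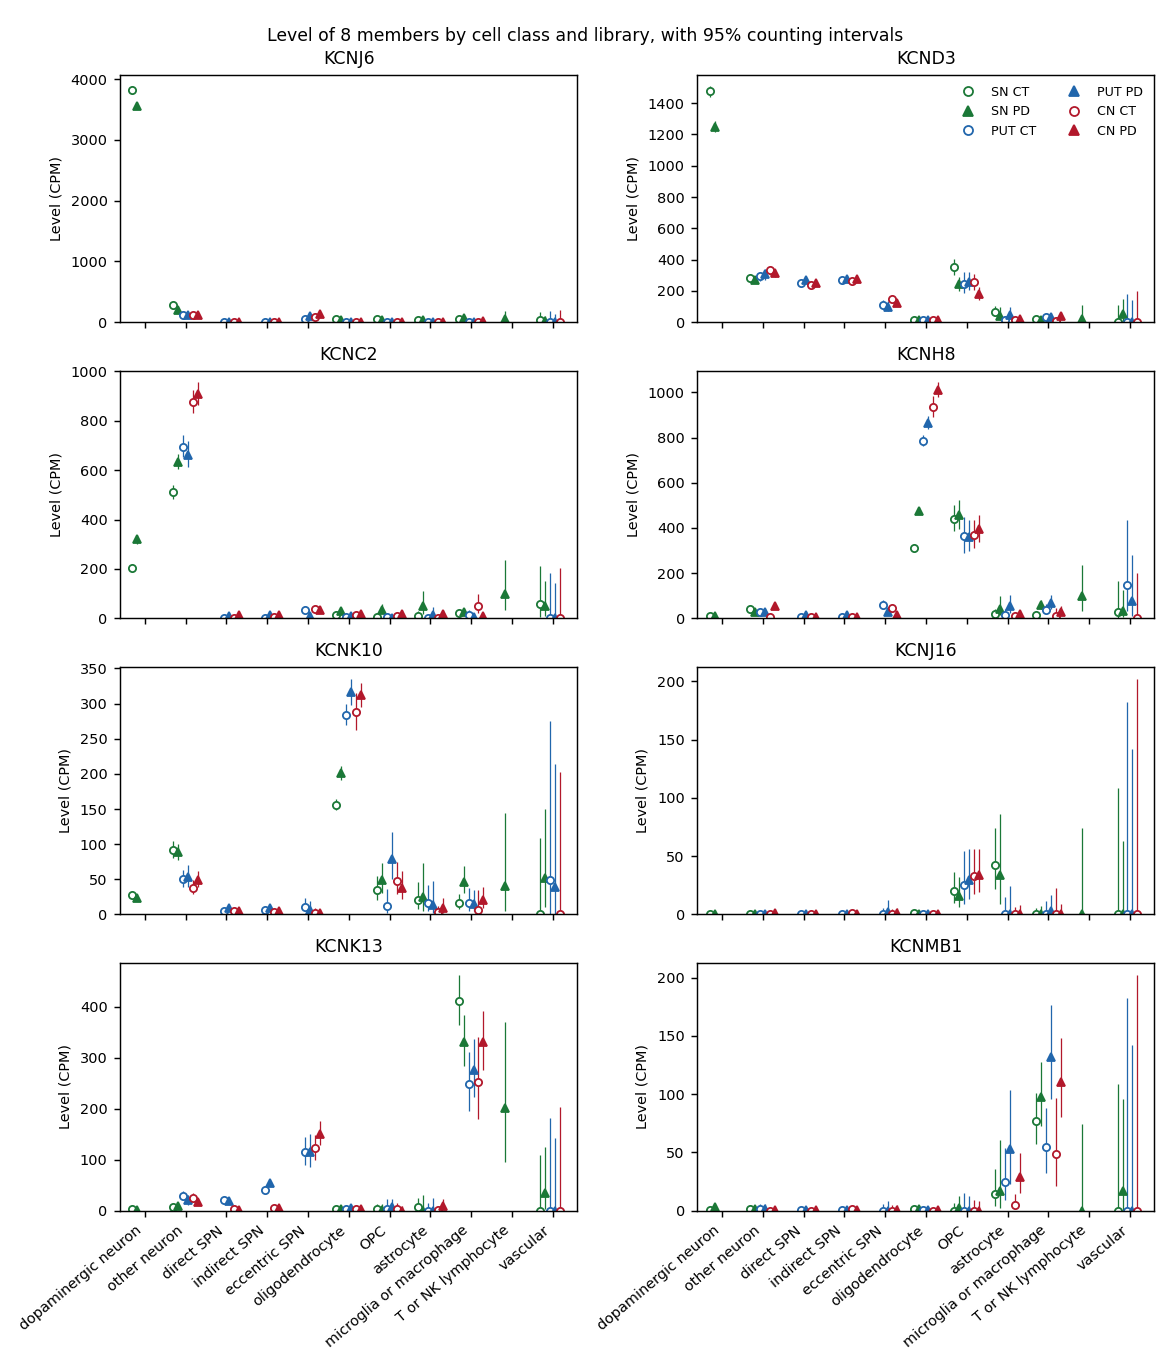
CPM (y axis, linear from 0, 1 panel per gene) of 8 members in each cell class (x axis), 1 point per library with its exact 95% counting interval, circles for CT and triangles for PD. Dopaminergic neurons stand apart for KCNJ6, at 3829 and 3566 CPM, and microglia or macrophages for KCNK13, at 249 to 411 CPM, while KCNJ16 is shared by OPCs and SN astrocytes.

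Dopaminergic neurons of the SN combined a G-protein-gated inward rectifier, an A-type pore and a small-conductance calcium-activated channel. KCNJ6, the subunit through which dopamine autoreceptors hyperpolarise these cells, stood at 3829 CPM in SN CT and 3566 in SN PD. In other neurons it was 113 to 279 CPM, in eccentric SPNs 53.3 to 127 CPM, and in direct SPNs at most 1.75 CPM. KCND3, the A-type pore that paces dopamine neurons, was 1475 CPM in SN CT and 1249 in SN PD, against 271 to 332 CPM in other neurons. Both genes lay far above the next class in both libraries. KCNN3, whose calcium-activated current follows each spike of the pacemaker, was 505 CPM in SN CT and 503 in SN PD, against at most 302 CPM elsewhere, a value reached in SN astrocytes. KCNG4, a silent subunit, was 20.1 CPM in SN CT and 30.02 in SN PD, and at most 7.61 CPM in any other class. KCNIP3, an accessory of KCND pores, was low at 14.8 and 15.3 CPM. KCNK3, an acid-sensitive leak channel, was 2.82 and 2.0 CPM, and KCNJ5, a G-protein-gated inward rectifier, 1.13 and 0.5 CPM. Dopaminergic neurons were poor in genes that fill the striatum: KCNQ5, an M-current pore, was 23.5 and 26.5 CPM here against 2433 to 3431 CPM in direct SPNs, and KCND2, the second A-type pore, 58.8 and 97.6 CPM against 1890.2 to 3229 CPM. Relative to the other neuronal classes, then, KCND3 was high and KCND2 low.

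SPNs were marked by abundance rather than by exclusive genes. KCNQ5 was 2281 CPM in PUT CT and 2553 in CN CT in indirect SPNs and 2433 CPM in PUT CT and 2839 in CN CT in direct SPNs. KCNQ3, a pore of the M channel, was 806 to 879.6 CPM in direct SPNs. KCNQ3 was 642 to 1164 CPM over all neuronal classes, while KCNQ5 was the M-channel gene that set SPNs apart from the neurons of the SN. KCND2 stood at 3229 CPM in PUT CT, 3096 in PUT PD, 1942 in CN CT and 1890.2 in CN PD in direct SPNs, so the PUT libraries lay above the CN libraries. KCNIP4 had the opposite regional order, at 3765 CPM in PUT CT, 5206 in PUT PD, 5852 in CN CT and 6937 in CN PD. KCNIP2 (91.7 to 136 CPM), another accessory of KCND pores, and KCNMA1 (984 to 1193 CPM), the large-conductance calcium-activated pore, were highest by median in direct SPNs but overlapped indirect SPNs. KCNAB1, which binds KCNA pores, was 850.5 to 1054 CPM in indirect and 705 to 1057 CPM in direct SPNs, and in dopaminergic neurons 20.9 and 42.5 CPM. KCNH4, an ether-à-go-go-like pore, was shared by the 3 SPN classes, at 77.1 to 115 CPM in direct, 83.7 to 123 CPM in indirect and 44.8 to 122 CPM in eccentric SPNs. KCNK2, a mechanically gated leak channel, was 198 to 304 CPM in indirect SPNs and 0.939 CPM or less in dopaminergic neurons. The pore genes KCNA1 and KCNA2, which sit on axons, were low throughout, at 4.45 to 10.02 CPM for KCNA2 in indirect SPNs. KCNJ4, an inward rectifier known from striatal neurons, reached at most 0.365 CPM in direct SPNs, and KCNJ2 at most 1.64.

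Direct and indirect SPNs differed in a few members and by region. KCNH7, an ether-à-go-go-related pore, was higher in indirect SPNs (224 CPM in PUT CT, 288 in PUT PD, 119 in CN CT and 119 in CN PD) than in direct SPNs (61.0 CPM in PUT CT, 92.5 in PUT PD, 60.3 in CN CT and 69.1 in CN PD) in each of the 4 striatal libraries. KCNT2, a sodium-activated pore, was also higher in indirect SPNs, at 19.2 to 45.2 CPM against 2.19 to 6.75 CPM. KCNB2, a delayed rectifier, had the opposite order, at 205 to 413 CPM in direct and 148 to 249.9 CPM in indirect SPNs, and in each library the direct SPNs were the higher. KCNK13, a leak channel, was a PUT gene among direct and indirect SPNs: indirect SPNs held 40.7 CPM in PUT CT, 53.4 in PUT PD, 5.53 in CN CT and 5.27 in CN PD. Eccentric SPNs held 115 to 150.1 CPM of it with no such contrast. KCNT1, a sodium-activated pore, had the order of KCNK13 in indirect SPNs, at 81.6 CPM in PUT CT, 92.8 in PUT PD, 23.5 in CN CT and 26.2 in CN PD. Both PUT libraries lay above both CN libraries for KCNK13 and KCNT1 in indirect SPNs, with PD and CT close together.

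Eccentric SPNs, a small striatal class of 111 to 213 nuclei per library, had the most distinct set among striatal projection neurons. KCNT2 was 552 CPM in PUT CT, 592 in PUT PD, 753 in CN CT and 695 in CN PD, far above direct SPNs. KCNH3, an ether-à-go-go-like pore, was 187 CPM in PUT CT, 165 in PUT PD, 184 in CN CT and 127 in CN PD, against at most 104 CPM in direct SPNs. KCNT1 was 51.2 to 152 CPM, again higher in PUT. KCNIP1, an accessory of KCND pores, was 304 to 509 CPM, against 56.5 to 181 CPM in direct SPNs. KCNJ3, the usual partner of KCNJ6 in G-protein-gated channels, and KCNJ6 itself were both present, at 105 to 213 CPM and 53.3 to 127 CPM, while direct SPNs held at most 4.56 CPM of KCNJ3. Eccentric SPNs were lower than the other SPNs in KCNB2 (17.4 to 85.8 CPM), in KCND2 (1054 to 1195 CPM) and in KCNG3 (at most 8.54 CPM against 40.4 to 58.0 CPM in direct SPNs), a silent subunit.

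Other neurons, which pool striatal interneurons with the non-dopaminergic neurons of the SN, were the class of the KCNC pores. KCNC2 was 511 CPM in SN CT, 634 in SN PD, 695 in PUT CT, 663 in PUT PD, 875 in CN CT and 908 in CN PD, and the next class, dopaminergic neurons, held 203 and 320.0 CPM. KCNC1 was 114 CPM in SN CT, 96.6 in SN PD, 60.8 in PUT CT, 49.3 in PUT PD, 69.5 in CN CT and 61.1 in CN PD. Both genes allow fast repolarisation in fast-spiking interneurons, and in direct SPNs KCNC1 did not exceed 18.0 CPM. KCNK3 was 13.6 to 24.5 CPM, and KCNJ3 was 272 to 383 CPM with no library of the other neuronal classes above 213 CPM. KCNIP4 reached its highest level here in the SN, at 9498 CPM in SN CT and 8230.5 in SN PD, and was 4242 CPM in PUT CT, 4533 in PUT PD, 3730.1 in CN CT and 4720.3 in CN PD. KCNIP1 had the same regional order, at 429 CPM in SN CT, 389 in SN PD, 91.9 in PUT CT, 64.0 in PUT PD, 48.5 in CN CT and 91.1 in CN PD. KCNAB1 and KCNQ5 ran the other way, with KCNAB1 at 92.3 CPM in SN CT, 118 in SN PD, 428 in PUT CT, 416 in PUT PD, 384 in CN CT and 537 in CN PD.

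Oligodendrocytes carried leak channels and an ether-à-go-go-like pore. KCNK1 was 342 CPM in SN CT, 349 in SN PD, 306 in PUT CT, 288 in PUT PD, 289 in CN CT and 326 in CN PD, so the 6 libraries hardly differed. KCNK10 was 156 CPM in SN CT, 201 in SN PD, 284 in PUT CT, 317 in PUT PD, 288 in CN CT and 312 in CN PD, and no other class exceeded 91.9 CPM. KCNMB4, a beta subunit of the large-conductance calcium-activated channel, was 404 CPM in SN CT, 435 in SN PD, 247 in PUT CT, 287 in PUT PD, 256 in CN CT and 308 in CN PD. The pore it modulates, KCNMA1, was itself low in oligodendrocytes, at 19.9 to 141 CPM, against 984 to 1193 CPM in direct SPNs. KCNH8 was higher in striatal than in SN oligodendrocytes, at 311 CPM in SN CT, 477 in SN PD, 787 in PUT CT, 866 in PUT PD, 936 in CN CT and 1013 in CN PD, and OPCs of all regions held 362 to 458 CPM. KCNJ2, a classical inward rectifier, was low, at 13.3 to 19.6 CPM against at most 6.04 CPM in microglia or macrophages. The vascular nuclei of SN CT, of which there were 29, held 29.4 CPM. KCNK12, a silent leak-channel relative, was regional within the class, at 92.8 CPM in SN CT, 46.0 in SN PD, 10.7 in PUT CT, 17.2 in PUT PD, 7.64 in CN CT and 8.65 in CN PD.

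OPCs had a neuron-like set built on A-type channels. KCND2 was 3969.9 CPM in SN CT, 4182 in SN PD, 2793 in PUT CT, 3092 in PUT PD, 3228 in CN CT and 3626 in CN PD, overlapping the levels of direct SPNs and far above oligodendrocytes of the SN (23.1 and 41.7 CPM). KCNIP4 was 1574 to 2795 CPM, KCNIP1 297 to 654 CPM and KCNIP3 83.7 to 161 CPM, so the pore and 3 of its accessories were present together in every OPC library. KCNMA1 (501 to 676 CPM) and KCNQ1 (249.5 to 462 CPM), a delayed rectifier best known from heart, were also high. KCNH5, an ether-à-go-go pore, was 86.9 to 268 CPM, overlapping oligodendrocytes at 69.6 to 176 CPM. KCNJ16, an inward rectifier that pairs with the astrocytic one, was 20.3 CPM in SN CT, 15.5 in SN PD, 25.0 in PUT CT, 29.6 in PUT PD, 33.0 in CN CT and 33.8 in CN PD. Outside OPCs KCNJ16 appeared in SN astrocytes, at 42.4 and 33.6 CPM, with 0 UMIs in the astrocytes of all 4 striatal libraries, which allows up to 6.07 CPM in CN CT and 24.3 in PUT PD.

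Astrocytes showed a strong regional contrast. KCNN2 was 356 CPM in SN CT, 336 in SN PD, 0 in PUT CT, 13.2 in PUT PD, 8.23 in CN CT and 20.1 in CN PD and KCNN3 286 CPM in SN CT, 302 in SN PD, 41.1 in PUT CT, 65.9 in PUT PD, 23.0 in CN CT and 53.6 in CN PD, so both small-conductance calcium-activated pores were high in SN astrocytes and low in striatal ones. KCNT2 followed the same order, at 254 CPM in SN CT, 319 in SN PD, 24.6 in PUT CT, 19.8 in PUT PD, 24.7 in CN CT and 8.93 in CN PD, and so did KCNQ3, at 649 CPM in SN CT, 571 in SN PD, 185 in PUT CT, 329.6 in PUT PD, 149.7 in CN CT and 235 in CN PD. The SN values rest on 197 and 79 nuclei, and SN astrocytes entered no PD and CT comparison. KCNK4, a mechanically gated leak channel, was 13.2 to 45.9 CPM with its highest class median here. KCNJ10 and KCNJ12 are not analysed here. KCNK1, a leak channel known from astrocytes, was at most 79.1 CPM in them.

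Microglia or macrophages were marked by leak channels and an M-channel pore. KCNK13, which sets the resting potential of microglia, was 411 CPM in SN CT, 331 in SN PD, 249 in PUT CT, 275 in PUT PD, 251 in CN CT and 330.3 in CN PD. KCNK6, a leak channel, was 96.6 CPM in SN CT, 43.0 in SN PD, 54.9 in PUT CT, 35.2 in PUT PD, 42.9 in CN CT and 47.5 in CN PD, against at most 12.3 CPM in any other class. KCNMB1, a beta subunit known from smooth muscle, was 49.0 to 132 CPM, and astrocytes held 4.94 to 52.7 CPM. KCNQ3 was 1671 CPM in SN CT, 1457 in SN PD, 927 in PUT CT, 2168 in PUT PD, 1091 in CN CT and 1987 in CN PD, above every neuronal class of the same library in all 6, and KCNQ1 was 242 to 598 CPM. KCNG1, a silent subunit, was 6.04 to 30.03 CPM. KCNN4, the intermediate-conductance calcium-activated channel of activated immune cells, was 0 to 16.6 CPM and KCNA3, the voltage-gated channel of lymphocytes and activated microglia, had 0 UMIs in every library, which allows up to 5.57 CPM in SN CT, the deepest. Lymphocytes were numerous enough only in SN PD (70 nuclei), where KCNA3 and KCNN4 had 0 UMIs, allowing up to 74.1 CPM, and KCNK5, KCNJ13 and KCNRG were each at 40.2 CPM, which is 2 UMIs. Vascular nuclei (20 to 43 per library with a level) carried KCNJ8, the inward rectifier of mural cells, at 193 CPM in PUT PD and 29.4 in SN CT, which are 5 UMIs and 1 UMI, and had 0 UMIs in the other vascular libraries, which allows up to 63.3 CPM in SN PD and 202 CPM in CN CT. Their KCNT2 (198 to 1349 CPM) and KCNK2 (38.5 to 588 CPM) varied widely at this depth. KCNJ11, the other pore of ATP-sensitive channels, was at most 4.17 CPM in any class. KCNA10, KCNE3 and KCNJ15 had 0 UMIs in all retained nuclei.

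**Figure D3:**
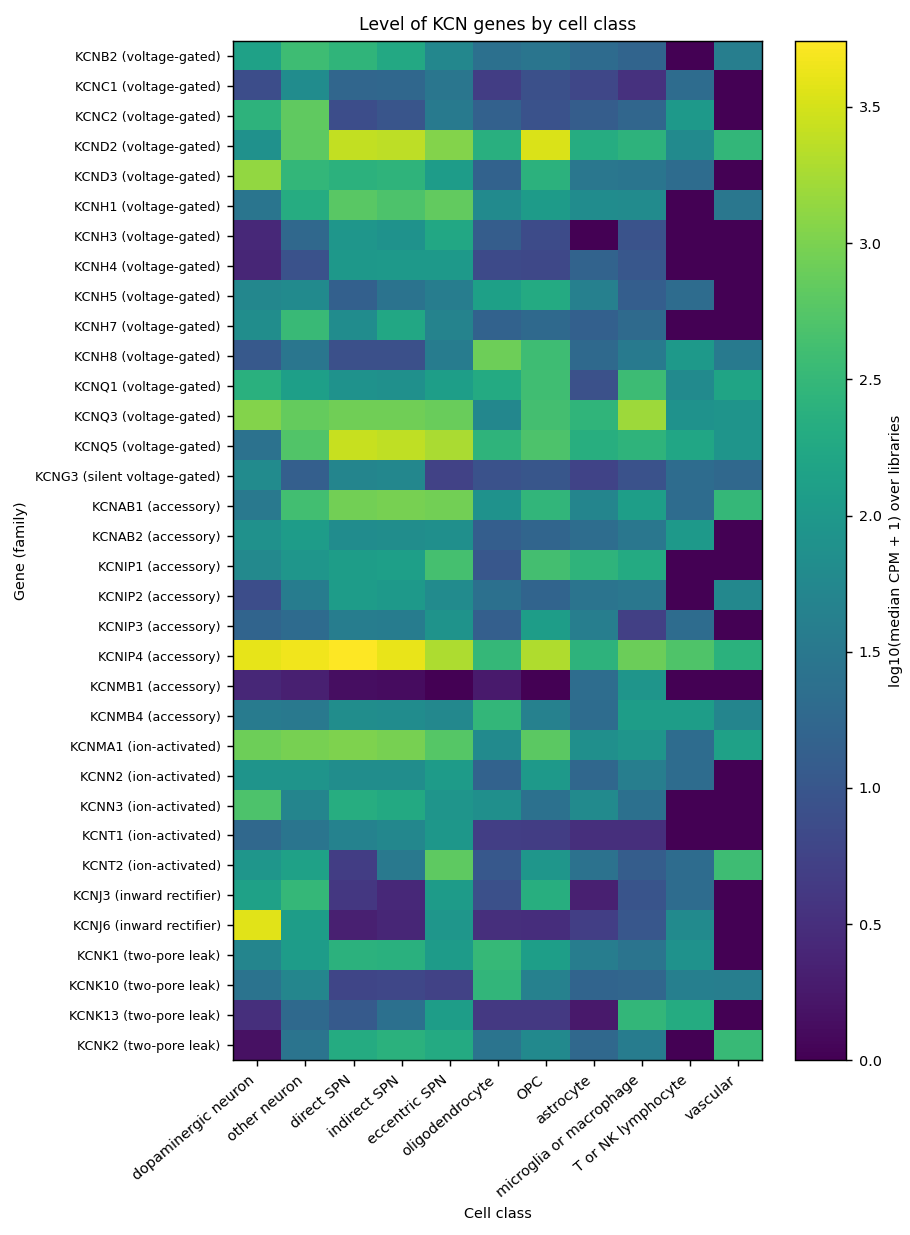
Median level over libraries, as log10 of CPM plus 1 (colour), of the members with a median of at least 50 CPM in their highest class (rows, with their family, apart from members not reported) in each cell class (columns). Rows with 1 bright class include KCNJ6 in dopaminergic neurons and KCNK13 in microglia or macrophages, and KCNIP4 is high in all neurons and in OPCs.

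PD and CT were compared within a class and region where both libraries held at least 100 nuclei of it, which gave 21 comparisons. A gene counted as measured with at least 100 UMIs over both libraries, and as past the fold, upward or downward, where its CPM was at least 1.5-fold higher or lower in PD. Of the 87 members, 53 were measured in at least 1 comparison, giving 496 pairs of a member and a comparison. Of these pairs 77 were higher in PD and 35 lower, and 37 members passed the fold in at least 1 comparison. Over all genes the same rule called 4.38% of pairs higher and 7.87% lower. Members were therefore called higher more often than all genes (15.5% of pairs) and lower about as often (7.06%). The 27 partner genes of potassium channels that were listed (auxiliary subunits, scaffolds, the sodium-potassium pump, chloride transporters and hyperpolarisation-activated channels), 25 of them in the files, gave 225 pairs, of which 38 were higher and 9 lower. Ratios are PD over CT with their 95% counting interval, which holds no variation between animals. A single log2 ratio given within clusters or cluster by cluster was pooled over clusters with at least 10 nuclei of both libraries. Thinning to 1000 UMIs left out nuclei with fewer UMIs. Only up to 4 members per direction and comparison, and those past the fold in every region of a class, were recomputed in these ways. The log2 ratios of other members past the fold were not checked.

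**Figure D4:**
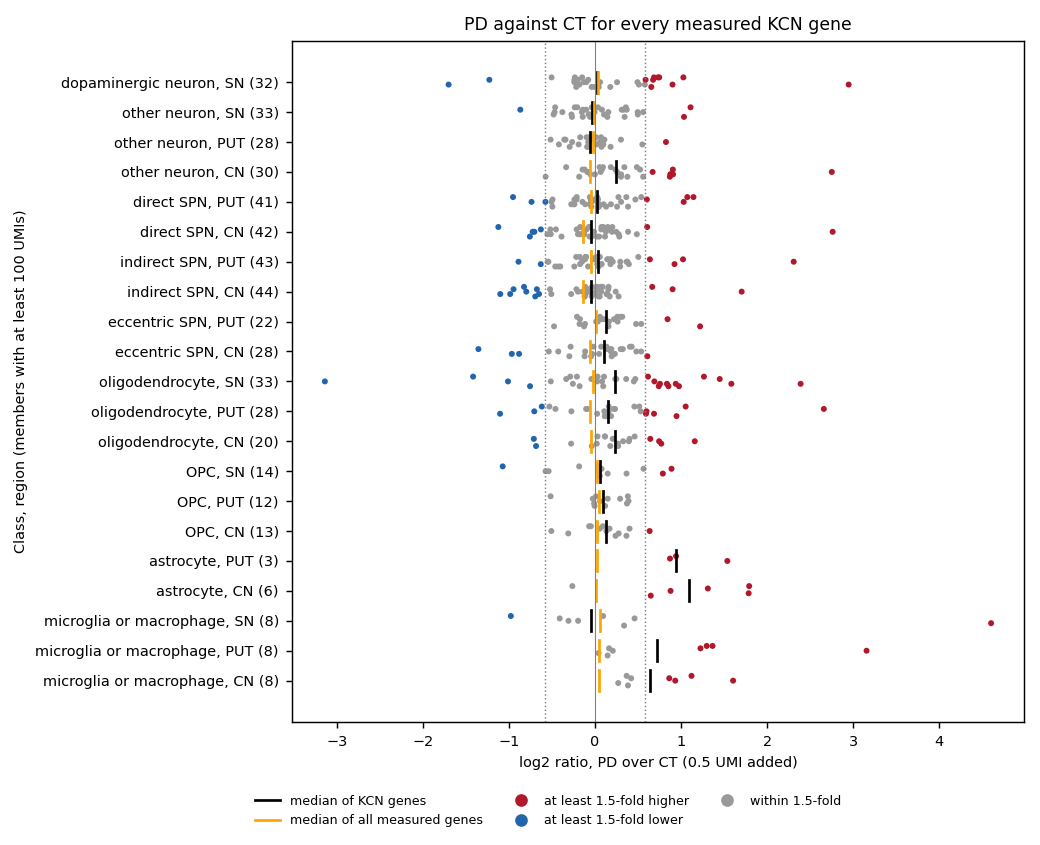
Log2 ratio of PD over CT (x axis) of each measured member, 1 point per member, in each class and region (y axis, number of measured members in brackets), with dotted lines at 1.5-fold and ticks at the median of the members (black) and of all measured genes (orange). Most points lie between the dotted lines, and KCNMA1 in SN microglia or macrophages, at 19.6 and 494 CPM (ratio 25.2), lies farthest to the right.

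In dopaminergic neurons the members that lay above every other class stayed within the fold, and several genes that were low in CT were higher in PD. KCNJ6 was 3829 CPM in CT and 3566 in PD (PD/CT ratio 0.931, 0.911 to 0.951), KCND3 1475 CPM in CT and 1249 in PD (PD/CT ratio 0.847, 0.817 to 0.877) and KCNN3 505 CPM in CT and 503 in PD (PD/CT ratio 0.997, 0.94 to 1.06). KCNG4 came closest to the fold, at 20.1 CPM in CT and 30.02 in PD (PD/CT ratio 1.49, 1.14 to 1.96). In these neurons 9 of 32 measured members were past the fold upward in PD, against 5.59% of all 8589 genes measured, and 2 downward, against 4.51%. In the same comparison the median log2 ratio was 0.02 for the members and 0.03 for all genes. KCNIP1 differed most, at 12.8 CPM in CT and 99.1 in PD (PD/CT ratio 7.75, 5.98 to 10.2). Of its 396 UMIs in PD, 372 lay in 1 cluster, 4.2, where the level was 33.9 CPM in CT and 228 in PD (PD/CT ratio 6.72), while in cluster 4.1 the ratio was 0.972 and in cluster 4.0 1.78. KCNIP4, which binds the same A-type pores, was 3031 CPM in CT and 5082 in PD (PD/CT ratio 1.68, 1.64 to 1.71). Within clusters its log2 ratio was 0.27 rather than 0.75. The KCNIP4 level in PD was higher in cluster 4.5 (8006 CPM, 44 PD nuclei and 6 CT nuclei) than in cluster 4.0 (3302 CPM, 39 and 101). The delayed rectifier KCNB2 was 96.4 CPM in CT and 179.9 in PD (PD/CT ratio 1.87, 1.66 to 2.09) and the A-type pore KCND2 58.8 CPM in CT and 97.6 in PD (PD/CT ratio 1.66, 1.43 to 1.93). The remaining higher members were KCNAB1 (20.9 and 42.5 CPM, ratio 2.04), KCNQ1 (179 and 287 CPM, ratio 1.61), KCNC2 (203 and 320.0 CPM, ratio 1.57), KCNH5 (40.6 and 64.8 CPM, ratio 1.60) and KCNJ3 (112 and 168 CPM, ratio 1.5).

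KCNT2, the sodium-activated pore, was 130.4 CPM in CT and 55.5 in PD (PD/CT ratio 0.426, 0.365 to 0.496). None of the 16 measured partner genes passed the fold in either direction. The summed dopaminergic markers were 2538 CPM in CT and 2460.0 in PD, and the 2 libraries shared 61.5% of their distribution over clusters, with CT nuclei most numerous in cluster 4.0 and PD nuclei in cluster 4.2. The part of this cluster shift in the member values was not tested beyond the within-cluster ratios given here. Compared cluster by cluster, the log2 ratio did not reach the 1.5-fold mark for KCNAB1 (0.32) and KCNIP4 (0.27) in SN. With nuclei thinned to 1000 UMIs, KCNT2 (-0.42) in SN did not keep a log2 ratio past that mark in the same direction. KCND2, KCNQ1, KCNC2, KCNH5 and KCNJ3 were not recomputed in either way.

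Other neurons showed few differences in SN and PUT and more in CN. In SN, 2 of 33 measured members were past the fold upward in PD, against 3.39% of all 7371 genes measured, and 1 downward, against 4.79%. KCNQ5 was 126 CPM in CT and 272 in PD (PD/CT ratio 2.16, 1.89 to 2.47) and KCNB2 134 CPM in CT and 274 in PD (PD/CT ratio 2.05, 1.80 to 2.34), while KCNN3 was 147 CPM in CT and 80.2 in PD (PD/CT ratio 0.547, 0.461 to 0.648). In PUT, 1 of 28 measured members was past the fold upward in PD, against 2.8% of all 4469 genes measured, and 0 downward, against 4.36%, the single member being KCNT2 at 115 CPM in CT and 203 in PD (PD/CT ratio 1.77, 1.43 to 2.20). In CN, 7 of 30 measured members were past the fold upward in PD, against 3.01% of all 5556 genes measured, and 0 downward, against 6.95%. There KCNQ5 was 471 CPM in CT and 865 in PD (PD/CT ratio 1.84, 1.68 to 2.01), KCNH7 238 CPM in CT and 446 in PD (PD/CT ratio 1.87, 1.65 to 2.13), KCNH1 113 CPM in CT and 207 in PD (PD/CT ratio 1.84, 1.53 to 2.21) and KCNH8 7.65 CPM in CT and 53.3 in PD (PD/CT ratio 6.97, 3.80 to 14.0). KCNH8 rested on 12 UMIs in CT and 89 in PD, 14 of the latter in 1 nucleus. Oligodendrocytes held 311 to 1013 CPM of KCNH8. Summed oligodendrocyte markers in these neurons were 620 CPM in CT and 716 in PD. General SPN markers were 1170 and 1491 CPM and eccentric SPN markers 45.3 and 101. Direct SPN markers were 71.4 and 41.3 CPM, indirect SPN markers 164 and 116, and striatal interneuron markers 1049 and 795. The part of these lists in the member ratios was not tested. KCNIP1 and KCNN3 were also past the fold upward, with KCNN3 at 28.1 and 51.5 CPM (ratio 1.84), so KCNN3 had opposite directions in SN and CN. In CN it had UMIs in 34 CT and 52 PD nuclei, and the CN log2 ratios of KCNIP1 and KCNN3 were not recomputed under the alternatives. KCNC1 and KCNC2, which were highest in this class, did not pass the fold in any region: KCNC2 was 511 and 634 CPM (ratio 1.24) in SN, 695 and 663 CPM (ratio 0.953) in PUT and 875 and 908 CPM (ratio 1.04) in CN. Median log2 ratios of the members were -0.04, -0.05 and 0.24 in SN, PUT and CN, against -0.02, -0.02 and -0.06 for all genes. Of the partners, DPP10, an auxiliary subunit of A-type channels, was higher in CN at 1019 CPM in CT and 1988 in PD (PD/CT ratio 1.95, 1.84 to 2.07) and none passed the fold in SN or PUT. The class mixes neuron types, and in CN 129 of the CT nuclei but 2 of the PD nuclei lay in cluster 18.0, against 14 and 104 in cluster 18.2, so composition and level cannot be told apart. Taken within clusters, the log2 ratio did not reach the 1.5-fold mark for KCNT2 (0.47) in PUT, and KCNH1 (0.40), KCNH7 (0.46) and KCNQ5 (0.58) in CN. With nuclei thinned to 1000 UMIs, KCNT2 (0.14) in PUT did not keep a log2 ratio past that mark in the same direction.

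In direct SPNs the most abundant members stayed within the fold, with KCNIP4 at 3765 and 5206 CPM (ratio 1.38) in PUT and 5852 and 6937 CPM (ratio 1.19) in CN and KCND2 at 3229 and 3096 CPM (ratio 0.959) and 1942 and 1890.2 CPM (ratio 0.973), CT first. In PUT, 4 of 41 measured members were past the fold upward in PD, against 3.86% of all 9782 genes measured, and 3 downward, against 6.88%. KCNH5 was 18.7 CPM in CT and 41.2 in PD (PD/CT ratio 2.21, 1.81 to 2.70) and KCNH7 61.0 CPM in CT and 92.5 in PD (PD/CT ratio 1.52, 1.35 to 1.71). KCNH8 (6.87 and 14.1 CPM, ratio 2.05) and KCNK10 (4.46 and 9.42 CPM, ratio 2.11) were also higher. With nuclei with markers of 2 lineages added to the class, their log2 ratios were -0.48 and -0.016. Oligodendrocytes of those libraries held 787 and 866 CPM of KCNH8. Summed oligodendrocyte markers in the direct SPNs were 383 CPM in CT and 359 in PD. The part of oligodendrocyte RNA in these ratios was not tested. The lower members were KCNMB3, a beta subunit of the large-conductance channel (12.4 and 6.33 CPM, ratio 0.512), KCNH2 (12.7 and 7.57 CPM, ratio 0.596) and KCNJ13 (8.12 and 5.41 CPM, ratio 0.665), whose counting interval of 0.431 to 1.01 holds a ratio of 1.

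In the direct SPNs of CN, 2 of 42 measured members were past the fold upward in PD, against 2.6% of all 10676 genes measured, and 5 downward, against 11.5%, so the lower calls stood near the share of all genes. KCNH1 was 643 CPM in CT and 394 in PD (PD/CT ratio 0.613, 0.591 to 0.637) and KCNH3 95.4 CPM in CT and 56.4 in PD (PD/CT ratio 0.591, 0.535 to 0.653), both of the ether-à-go-go families. KCNH1 was also lower in PUT, at 826 and 586 CPM (ratio 0.71), short of the fold. KCNMB3 (12.9 and 5.87 CPM, ratio 0.457), KCNN1 (12.5 and 7.54 CPM, ratio 0.604) and the silent subunit KCNV2 (8.57 and 5.52 CPM, ratio 0.644) were lower as well. KCNB2 was 272 CPM in CT and 413 in PD (PD/CT ratio 1.52, 1.45 to 1.59). KCNC2 was 1.91 CPM in CT and 13.2 in PD (PD/CT ratio 6.91, 4.36 to 11.5). The oligodendrocytes of the same libraries held 12.3 and 17.3 CPM of it and the other neurons 875 and 908. Summed striatal interneuron markers in the CN direct SPNs were 31.8 CPM in CT and 15.4 in PD, and oligodendrocyte markers 157 and 160. The part of other classes in this ratio was not tested. The members' median log2 ratios were 0.02 in PUT and -0.05 in CN, against -0.05 and -0.14 for all genes. Among partners, 4 of 16 measured were past the fold upward and 0 downward in PUT, and 3 of 16 measured were past the fold upward and 2 downward in CN. CNTNAP2, which clusters axonal channels, was 4339 CPM in CT and 7549.8 in PD (PD/CT ratio 1.74, 1.72 to 1.76) in PUT and 2113 CPM in CT and 4337 in PD (PD/CT ratio 2.05, 2.02 to 2.09) in CN, and DPP10 was 42.8 CPM in CT and 247 in PD (PD/CT ratio 5.76, 5.15 to 6.47) and 347 CPM in CT and 678 in PD (PD/CT ratio 1.95, 1.88 to 2.03). CT and PD nuclei overlapped by 17.7% in PUT and 20.1% in CN over clusters, most CT nuclei lying in clusters 19.2 and 13.2 and most PD nuclei in 19.1 and 13.1. Within the CN clusters that held at least 10 nuclei of both, KCNH1 ratios were 0.613, 0.676 and 0.677. Taken within clusters, the log2 ratio did not reach the 1.5-fold mark for KCNH2 (-0.43), KCNH8 (0.42) and KCNJ13 (-0.38) in PUT, and KCNB2 (0.49), KCNH1 (-0.58) and KCNN1 (-0.21) in CN. With nuclei thinned to 1000 UMIs, KCNH2 (-0.49) and KCNJ13 (-0.09) in PUT, and KCNB2 (0.54) in CN did not keep a log2 ratio past that mark in the same direction.

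Indirect SPNs gave a similar list. In PUT, 4 of 43 measured members were past the fold upward in PD, against 3.86% of all 10042 genes measured, and 2 downward, against 7.05%. KCNH5 was 32.8 CPM in CT and 66.7 in PD (PD/CT ratio 2.03, 1.76 to 2.35) in PUT and 9.96 CPM in CT and 18.6 in PD (PD/CT ratio 1.87, 1.47 to 2.40) in CN, past the fold in both regions. KCNC2 was 2.93 CPM in CT and 14.7 in PD (PD/CT ratio 5.01, 3.28 to 7.90) and 4.12 CPM in CT and 13.5 in PD (PD/CT ratio 3.28, 2.31 to 4.76). The oligodendrocytes of CN PD held 17.3 CPM of it. Summed striatal interneuron markers in the indirect SPNs were 48.0 CPM in CT and 25.1 in PD in PUT, and 33.9 and 15.6 in CN. Oligodendrocyte markers there were 395 and 365 CPM in PUT and 148 and 142 in CN. The part of other classes in these ratios was not tested. KCNH8 (7.95 and 15.1 CPM, ratio 1.90) and KCNK10 (6.17 and 9.61 CPM, ratio 1.56) were higher in PUT, and KCNH8 changed sign with nuclei of 2 lineages added. KCNMB3 (10.2 and 5.49 CPM, ratio 0.536) and KCNJ13 (9.62 and 6.17 CPM, ratio 0.642) were lower. In CN, 3 of 44 measured members were past the fold upward in PD, against 2.81% of all 10495 genes measured, and 8 downward, against 12%. KCNH1 was 522 CPM in CT and 300.1 in PD (PD/CT ratio 0.574, 0.55 to 0.6), and in PUT 679.7 and 467 CPM (ratio 0.687), so this gene was lower in PD in both SPN classes and both regions. KCNH3 was 87.6 CPM in CT and 54.1 in PD (PD/CT ratio 0.617, 0.555 to 0.686) and KCNMB3 9.86 CPM in CT and 5.09 in PD (PD/CT ratio 0.516, 0.365 to 0.724). KCNV2, KCND1, KCNRG, KCNA2 and KCNH2 made up the other lower members, each at most 12.9 CPM in CT. KCNB2 was 158 CPM in CT and 249.9 in PD (PD/CT ratio 1.58, 1.49 to 1.69). Within CN clusters the KCNH1 ratios ran from 0.542 to 0.797. As medians, the members' log2 ratios were 0.04 and -0.05, against -0.05 and -0.15 for all genes. Among partners, 2 of 16 measured were past the fold upward and 1 downward in PUT, and 2 of 16 measured were past the fold upward and 1 downward in CN, with HCN2 lower in both. CT and PD overlapped by 32.8% and 18.0% over clusters: in PUT 1057 CT and 48 PD nuclei lay in 1 cluster and 32 and 1091 in another, and in CN 1781 and 38 against 21 and 1454. Compared cluster by cluster, the log2 ratio did not reach the 1.5-fold mark for KCNK10 (0.21) in PUT, and KCNB2 (0.55), KCNH1 (-0.54), KCNH3 (-0.32) and KCNH5 (0.58) in CN. With nuclei thinned to 1000 UMIs, KCNJ13 (-0.30) in PUT, and KCNH5 (0.37) in CN did not keep a log2 ratio past that mark in the same direction.

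In eccentric SPNs of PUT, 2 of 22 measured members were past the fold upward in PD, against 4.27% of all 2062 genes measured, and 0 downward, against 4.61%. KCNIP4 was 887 CPM in CT and 2066 in PD (PD/CT ratio 2.33, 2.10 to 2.59) and KCNAB2, a beta subunit of KCNA channels, 72.7 CPM in CT and 131 in PD (PD/CT ratio 1.80, 1.20 to 2.71). In CN, 1 of 28 measured members was past the fold upward in PD, against 4.72% of all 3372 genes measured, and 3 downward, against 7.71%. KCNIP3 was 81.7 CPM in CT and 31.7 in PD (PD/CT ratio 0.388, 0.249 to 0.595), KCNJ3 213 CPM in CT and 116 in PD (PD/CT ratio 0.542, 0.427 to 0.686) and KCNH4 87.8 CPM in CT and 44.8 in PD (PD/CT ratio 0.51, 0.346 to 0.744), while KCNJ6, the partner of KCNJ3, was 82.9 CPM in CT and 127 in PD (PD/CT ratio 1.53, 1.13 to 2.08). KCNH1 was 706 and 609.5 CPM (ratio 0.864) in PUT and 687 and 754 CPM (ratio 1.10) in CN, unlike its lower values in the other SPN classes, a difference that was not tested. KCNT2, highest by median in this class although vascular nuclei reached 1349 CPM, was 552 and 592 CPM (ratio 1.07) and 753 and 695 CPM (ratio 0.923). Median log2 ratios of the members were 0.13 and 0.10, against 0.01 and -0.06 for all genes. Among partners, 2 of 10 measured were past the fold upward and 1 downward in PUT, and 2 of 12 measured were past the fold upward and 0 downward in CN. Here the overlap over clusters was lowest, 7.98% in PUT and 9.51% in CN: clusters 16.3 and 16.5 were mostly CT, and 16.4 and 16.2 mostly PD.

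Oligodendrocytes had the longest list. In SN, 12 of 33 measured members were past the fold upward in PD, against 6.09% of all 10094 genes measured, and 4 downward, against 8.21%. In PUT, 6 of 28 measured members were past the fold upward in PD, against 4.11% of all 8347 genes measured, and 3 downward, against 11.6%. In CN, 4 of 20 measured members were past the fold upward in PD, against 4.9% of all 7046 genes measured, and 2 downward, against 9.31%. The members' median log2 ratios were 0.23, 0.15 and 0.23, and those of all genes -0.02, -0.06 and -0.05. KCNMA1, KCNQ1 and KCNIP4 were higher in all 3 regions. KCNMA1 was 19.9 CPM in CT and 59.8 in PD (PD/CT ratio 3.0, 2.52 to 3.59) in SN, 52.0 CPM in CT and 108 in PD (PD/CT ratio 2.08, 1.76 to 2.45) in PUT and 62.9 CPM in CT and 141 in PD (PD/CT ratio 2.24, 1.82 to 2.78) in CN. KCNQ1 was 253 CPM in CT and 426 in PD (PD/CT ratio 1.69, 1.60 to 1.78), 96.4 CPM in CT and 186 in PD (PD/CT ratio 1.93, 1.71 to 2.18) and 129.9 CPM in CT and 203 in PD (PD/CT ratio 1.56, 1.34 to 1.82) in the same order. KCNIP4 was 149.5 and 249.6 CPM (ratio 1.67), 239 and 361 CPM (ratio 1.51) and 410.2 and 687 CPM (ratio 1.68). For each of these genes every PD library lay above the CT library of its region.

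KCNIP3, a calcium-binding accessory that is also a transcriptional regulator, was 3.81 CPM in CT and 20.2 in PD (PD/CT ratio 5.29, 3.64 to 7.88) in SN and 4.48 CPM in CT and 28.8 in PD (PD/CT ratio 6.43, 4.0 to 10.8) in PUT. In CN it stood at 5.29 and 20.5 CPM on 9 and 83 UMIs, which is under the minimum for a call. Within clusters its log2 ratio was 1.96 in SN and 2.42 in PUT. In OPCs, where the gene was more abundant, it was 102 and 150.4 CPM (ratio 1.48) in SN. Other higher members of the SN were KCNH8 (311 and 477 CPM, ratio 1.53), KCNH1 (11.4 and 31.3 CPM, ratio 2.74), KCNH5 (69.6 and 124 CPM, ratio 1.78) and KCNQ5 (19.4 and 46.6 CPM, ratio 2.41), and KCNQ5 was also higher in CN (292 and 497 CPM, ratio 1.71). KCND2 and KCNJ3, which neurons and OPCs share, and KCNC2 and KCNH7, highest in other neurons, were between 1.61- and 1.97-fold higher in SN at 41.7 CPM or less. The SN log2 ratios of KCNH8, KCNH5, KCND2, KCNJ3, KCNC2 and KCNH7 were not recomputed under the alternatives.

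Lower in SN oligodendrocytes were KCNH3 (11.4 CPM in CT and 1.23 in PD, PD/CT ratio 0.108, 0.048 to 0.213), KCNAB1 (83.3 CPM in CT and 31.1 in PD, PD/CT ratio 0.374, 0.321 to 0.434), KCNK12 (92.8 CPM in CT and 46.0 in PD, PD/CT ratio 0.495, 0.435 to 0.563) and KCNJ9, a G-protein-gated inward rectifier (40.8 CPM in CT and 24.1 in PD, PD/CT ratio 0.591, 0.491 to 0.709). KCNH3 rested on 105 and 9 UMIs. KCNK12 was 10.7 and 17.2 CPM (ratio 1.61) in PUT, with UMIs in 44 CT and 58 PD nuclei, so its direction differed between SN and PUT. The PUT value was not recomputed under the alternatives. In the striatum KCNIP2 (38.8 and 25.2 CPM, ratio 0.649 in PUT and 33.5 and 20.5 CPM, ratio 0.612 in CN) and KCNRG, a regulator of channel assembly (32.2 and 19.7 CPM, ratio 0.61 and 32.9 and 20.5 CPM, ratio 0.623), were lower in both regions, and KCNJ13 in PUT (19.8 and 9.13 CPM, ratio 0.461). In CN both KCNIP2 and KCNRG turned to higher values, log2 ratios of 0.65 and 0.86, when nuclei with under 1000 genes were left out. The members that mark the class did not pass the fold: KCNK1 was 342 and 349 CPM (ratio 1.02) in SN and KCNMB4 404 and 435 CPM (ratio 1.07). Among partners, 3 of 15 measured were past the fold upward and 0 downward in SN, 3 of 13 measured were past the fold upward and 2 downward in PUT, and 4 of 13 measured were past the fold upward and 2 downward in CN, with the potassium-chloride cotransporter SLC12A5 lower in both striatal regions. Summed neuronal markers in oligodendrocytes were 216 CPM in CT and 271 in PD in SN, 532 CPM in CT and 344 in PD in PUT and 499.5 CPM in CT and 476 in PD in CN, and summed OPC markers 305 CPM in CT and 441 in PD, 365 CPM in CT and 546 in PD and 477 CPM in CT and 778 in PD in the same order. Summed OPC markers were thus higher in PD in all 3 regions. OPCs held more KCNMA1 and KCNIP4 than oligodendrocytes in every library, but not more KCNQ1 in SN CT. Summed SPN markers in oligodendrocytes had ratios of 1.12, 1.11 and 1.25, and the part of these marker lists in the member values was not tested. CT and PD overlapped by 40.8%, 36.7% and 26.3% over clusters, CT nuclei lying mostly in clusters 0.0 and 1.1 and PD nuclei in 0.2 and 1.0. Compared cluster by cluster, the log2 ratio did not reach the 1.5-fold mark for KCNIP4 (0.47) in SN, and KCNRG (-0.58) in PUT, and KCNRG (-0.23) in CN. With nuclei thinned to 1000 UMIs, KCNIP2 (-0.35) and KCNRG (-0.52) in PUT, and KCNQ1 (0.52) and KCNRG (-0.58) in CN did not keep a log2 ratio past that mark in the same direction. Thinning kept 497 of 1861 CT and 2134 of 3326 PD nuclei in CN.

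OPCs differed least, and here CT and PD nuclei shared clusters, with an overlap of 99.1%, 95.3% and 91.5%. In SN, 2 of 14 measured members were past the fold upward in PD, against 3.02% of all 2088 genes measured, and 1 downward, against 3.88%. KCNQ1 was 249.5 CPM in CT and 462 in PD (PD/CT ratio 1.85, 1.48 to 2.32) and KCNH5 86.9 CPM in CT and 150.4 in PD (PD/CT ratio 1.73, 1.18 to 2.57), both also higher in SN oligodendrocytes, and KCNAB1 was 183 CPM in CT and 86.3 in PD (PD/CT ratio 0.471, 0.317 to 0.689), also lower there. In PUT, 0 of 12 measured members were past the fold upward in PD, against 4.93% of all 1095 genes measured, and 0 downward, against 3.01%. In CN, 1 of 13 measured members was past the fold upward in PD, against 3.9% of all 1743 genes measured, and 0 downward, against 3.33%, the single member being KCNQ5 at 543 CPM in CT and 843 in PD (PD/CT ratio 1.55, 1.31 to 1.85). KCND2, the leading gene, was 3969.9 and 4182 CPM (ratio 1.05) in SN, 2793 and 3092 CPM (ratio 1.11) in PUT and 3228 and 3626 CPM (ratio 1.12) in CN. As medians, the members' log2 ratios were 0.05, 0.09 and 0.13, against 0.02, 0.04 and 0.02 for all genes. Of the partners, CNTNAP2 passed the fold in CN (655 and 1006 CPM, ratio 1.54) and none in SN or PUT.

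Astrocytes of the striatum had higher members only, on few measured genes. In PUT, 3 of 3 measured members were past the fold upward in PD, against 5.51% of all 708 genes measured, and 0 downward, against 5.51%. In CN, 5 of 6 measured members were past the fold upward in PD, against 5.31% of all 2221 genes measured, and 0 downward, against 6.44%. The summed level of all members was 2017 CPM in CT and 3521 in PD (PD/CT ratio 1.75) in PUT and 1792 CPM in CT and 3132 in PD (PD/CT ratio 1.75) in CN. KCNQ5 was 222 CPM in CT and 646 in PD (PD/CT ratio 2.91, 2.07 to 4.14) in PUT and 217 CPM in CT and 753 in PD (PD/CT ratio 3.47, 2.83 to 4.27) in CN. KCNIP1 was 292 CPM in CT and 560.4 in PD (PD/CT ratio 1.92, 1.39 to 2.67) and 174 CPM in CT and 433 in PD (PD/CT ratio 2.48, 1.95 to 3.18), and KCNIP4 205 CPM in CT and 376 in PD (PD/CT ratio 1.83, 1.23 to 2.73) and 303 CPM in CT and 556 in PD (PD/CT ratio 1.84, 1.51 to 2.24). KCNMA1 was 77.3 CPM in CT and 268 in PD (PD/CT ratio 3.47, 2.45 to 4.97) in CN, and 65.7 and 409 CPM in PUT below the minimum for a call. KCNQ3 was 149.7 CPM in CT and 235 in PD (PD/CT ratio 1.57, 1.17 to 2.10) in CN. Among partners, 3 of 4 measured were past the fold upward and 0 downward in PUT, and 4 of 5 measured were past the fold upward and 0 downward in CN, led by DPP10 (209 CPM in CT and 1180.1 in PD, PD/CT ratio 5.63, 4.11 to 7.85 and 377 CPM in CT and 2464 in PD, PD/CT ratio 6.54, 5.67 to 7.57). Median log2 ratios of the members were 0.94 and 1.09, against 0.03 and 0.01 for all genes. KCNQ5, KCNIP4 and KCNMA1 are abundant in SPNs, and the summed SPN markers in astrocytes were 1988 CPM in CT and 2288 in PD in PUT and 1805 CPM in CT and 2091 in PD in CN. KCNIP1 in the PUT PD and CN PD libraries was 56.5 and 173 CPM in direct SPNs, 441 and 392 in OPCs and 703 and 250.2 in microglia or macrophages. Summed OPC markers in astrocytes were 308 CPM in CT and 396 in PD in PUT and 225 CPM in CT and 313 in PD in CN, and the part of these marker lists in the member values was not tested. CT and PD overlapped by 67.0% in PUT and 31.8% in CN over clusters, and in CN 337 of the CT nuclei but 22 of the PD nuclei lay in cluster 11.3. Compared cluster by cluster, the log2 ratio did not reach the 1.5-fold mark for KCNIP4 (0.57) in CN.

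Microglia or macrophages of the striatum were higher in M-channel and accessory genes. In PUT, 4 of 8 measured members were past the fold upward in PD, against 7.15% of all 1581 genes measured, and 0 downward, against 4.74%. In CN, 4 of 8 measured members were past the fold upward in PD, against 11.6% of all 1356 genes measured, and 0 downward, against 4.72%. KCNQ3 was 927 CPM in CT and 2168 in PD (PD/CT ratio 2.34, 2.04 to 2.69) in PUT and 1091 CPM in CT and 1987 in PD (PD/CT ratio 1.82, 1.55 to 2.15) in CN. KCNIP1 was 77.5 CPM in CT and 703 in PD (PD/CT ratio 9.07, 5.95 to 14.4) and 79.7 CPM in CT and 250.2 in PD (PD/CT ratio 3.14, 1.76 to 6.10), and KCNAB1 139 CPM in CT and 360.4 in PD (PD/CT ratio 2.59, 1.82 to 3.76) and 110.3 CPM in CT and 245 in PD (PD/CT ratio 2.22, 1.34 to 3.91). KCNQ1 was 242 CPM in CT and 598 in PD (PD/CT ratio 2.47, 1.88 to 3.26) in PUT and 306 and 398 CPM (ratio 1.30) in CN, and KCNQ5 257 CPM in CT and 495 in PD (PD/CT ratio 1.92, 1.37 to 2.75) in CN. The summed member level was 4161 CPM in CT and 6753 in PD (PD/CT ratio 1.62) in PUT and 3959.8 CPM in CT and 6076 in PD (PD/CT ratio 1.53) in CN. CT and PD shared clusters here, with an overlap of 95.7% and 88.9%, and the microglia markers were 4248 CPM in CT and 4286 in PD in PUT and 4432 CPM in CT and 4304 in PD in CN. Summed OPC markers in these nuclei were 255 CPM in CT and 357 in PD in PUT and 233 CPM in CT and 365 in PD in CN, and summed SPN markers 1874 CPM in CT and 2048 in PD and 1434 CPM in CT and 1699 in PD, and their part in the member values was not tested. KCNK13, which marks the class, was 249 and 275 CPM in PUT and 251 and 330.3 in CN, CT first. The members' median log2 ratios were 0.71 and 0.64, against 0.04 and 0.05 for all genes. CNTNAP2 was the partner higher in both regions. With nuclei thinned to 1000 UMIs, KCNAB1 (0.03) in CN did not keep a log2 ratio past the 1.5-fold mark in the same direction. Thinning kept only 28 of 193 CT and 182 of 371 PD nuclei there.

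In the SN, 1 of 8 measured members was past the fold upward in PD, against 12.7% of all 2874 genes measured, and 1 downward, against 10.1%, so with 1 call each way the members stood near the share of all genes. KCNMA1 was 19.6 CPM in CT and 494 in PD (PD/CT ratio 25.2, 14.5 to 47.9), with its 264 UMIs in PD spread over 180 nuclei. KCNMB4, a subunit of that channel, was 112 CPM in CT and 56.1 in PD (PD/CT ratio 0.502, 0.317 to 0.777). KCNQ3 was 1671 and 1457 CPM (ratio 0.872) and KCNK13 411 and 331 CPM (ratio 0.806). Most PD nuclei lay in clusters that held few CT nuclei: 192 against 6 in the first and 185 against 3 in the next, where KCNMA1 stood at 689 and 591 CPM in PD. In a cluster that both libraries filled (662 and 151 nuclei), KCNMA1 was 18.7 and 183 CPM (ratio 9.82, 4.83 to 21.2). Left out of the class was a cluster of 520 PD and 26 CT nuclei, with GPNMB, F13A1 and CD74 among its top genes. Clusters set aside as of 2 lineages, with APBB1IP and DOCK8 among their top genes, held 518 CT and 48 PD nuclei, and 201 and 29. The comparison thus covers only part of the SN nuclei with these genes. The class markers moved too, microglia markers being 4869 CPM in CT and 3406 in PD and border macrophage markers 287 CPM in CT and 791 in PD, and cell makeup and level per cell cannot be told apart for the whole class. The median log2 ratio of the members was -0.05, against 0.05 for all genes. Among partners, 1 of 4 measured was past the fold upward and 0 downward, the higher one being the scaffold DLG2. Compared cluster by cluster, the log2 ratio did not reach the 1.5-fold mark for KCNMB4 (-0.21) in SN.

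Across the 21 comparisons, the members most often past the fold upward were KCNQ5 (8 comparisons in 5 classes), KCNIP4 (7 in 4), KCNH5 (6 in 5), KCNIP1 (6 in 4) and KCNQ1 (6 in 4). KCNC2 and KCNMA1 were higher in 5 comparisons each. KCNMB3 was the member most often lower, in 4 comparisons of 2 classes. KCNQ5, KCNIP4, KCNH5, KCNIP1 and KCNQ1 passed the fold in the lower direction in no comparison. Some members had both directions: KCNAB1 was higher in 3 comparisons and lower in 2, KCNH1 higher in 2 and lower in 2, KCNIP3 and KCNJ3 each higher in 2 and lower in 1, and KCNK12, KCNN3 and KCNT2 had 1 comparison each way. Comparisons within a region draw on the same pair of libraries, so they are not independent of each other.

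**Figure D5:**
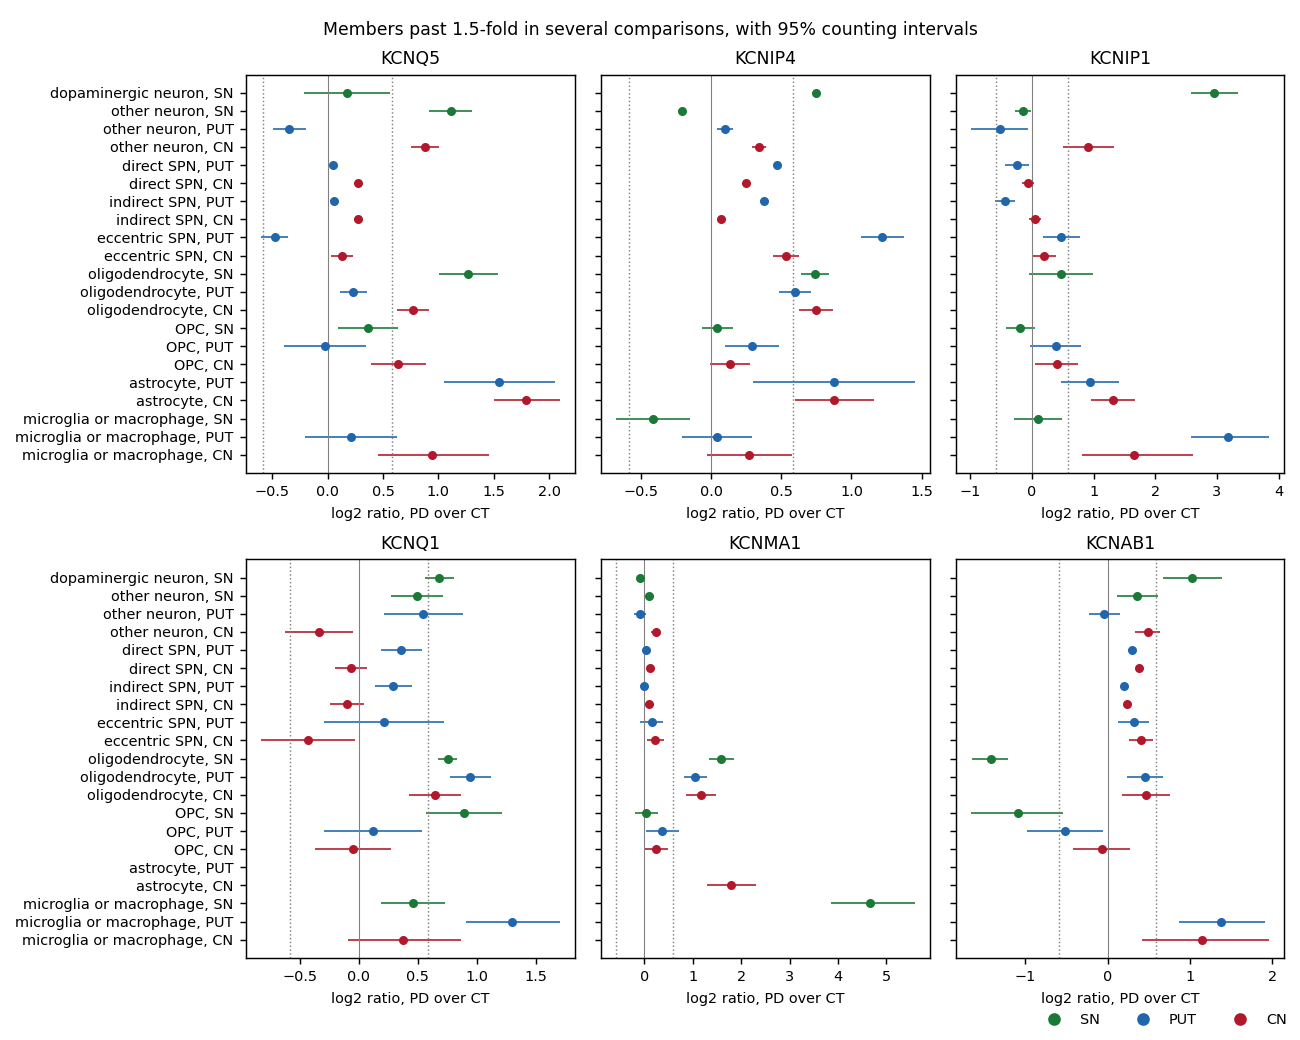
Log2 ratio of PD over CT (x axis) of KCNQ5, KCNIP4, KCNIP1, KCNQ1, KCNMA1 and KCNAB1 (1 panel each) in each class and region where the gene was measured (y axis), coloured by region, with 95% counting intervals and dotted lines at 1.5-fold. The first 5 have points past the fold on the higher side only, and KCNAB1 on both sides.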

How the data were processed

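Single-nucleus 10x 3′ (v3) counts were deposited by the authors as 6 matrices of UMI counts per gene and nucleus, 1 per region and treatment; per the submitters' processing notes Cell Ranger 7.0.1 and hg38 were used, while the gene IDs are of the cynomolgus annotation. Each matrix was taken as 1 library by the region and treatment in its name, since no map from nuclei to the 32 labelled samples was used. Nuclei were kept from 500 genes up, below a mitochondrial share of 5%, and with doublets removed at a Scrublet score above 0.25. Clustering used scanpy 1.11.5 (2000 variable genes without the KCN genes, 30 principal components, 15 neighbours, resolution 1, then again within clusters), and classes were named from marker lists. UMIs of a class were summed per library and given as CPM, with exact Poisson intervals for levels and exact conditional binomial intervals for ratios (scipy 1.17.1). Log2 ratios add 0.5 UMI. No test was made. The steps were tested on simulated counts. Members named were the 3 per class with the largest level over the next class (median of at least 10 CPM), up to 4 per direction and comparison ranked by the bound of the interval closest to a ratio of 1, those past the fold in every region of a class, and genes of known roles; other members past the fold are named to complete a count, after their values were seen. Some items are not reported here, though counts include them. The members and lists were chosen with earlier results of these data known. Alternatives covered gene and UMI minimums, doublets, clustering, thinning, fold, scaling and nuclei of 2 lineages.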

Additional observations from a re-analysis of the deposited data

Results flagged for a closer look

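KCNK12 in oligodendrocytes had opposite directions in 2 regions, with log2 ratios of PD over CT of 0.68 in PUT and -1.01 in SN. KCNN3 in other neurons likewise had a log2 ratio of 0.87 in CN and -0.87 in SN. Each was past 1.5-fold in both regions, with 1 library per region and treatment, so the difference between regions was not tested. The counts were low for KCNK12 in PUT (UMIs in 44 CT and 58 PD nuclei) and KCNN3 in CN (34 and 52). Neither of these 2 values was recomputed under the alternatives.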

How the results depend on the processing

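No paired analysis was possible because each region and treatment is 1 pooled library and the replicate numbers of the labels are attached to no nuclei. Depth limits the low members: 34 were measured in no comparison. Over all comparisons 77 member values were past the fold upward and 35 downward. A 2-fold mark left 31 and 10, thinning to 1000 UMIs left 40 and 12, and a minimum of 50 UMIs gave 59 downward and a minimum of 200 gave 15. Thinning and a higher minimum reduce the UMIs and so the members measured, and the cause of the other shifts was not tested. Thinning also left out nuclei under 1000 UMIs, and kept 28 of 193 CN CT and 182 of 371 CN PD microglia or macrophages. Members past the fold in either direction within single comparisons moved as follows. With a 2-fold mark there were 0 in other neurons PUT and OPCs CN, 1 in other neurons CN, eccentric SPNs PUT, eccentric SPNs CN, oligodendrocytes CN, OPCs SN, astrocytes PUT, microglia SN, 2 in direct SPNs CN, indirect SPNs PUT, indirect SPNs CN, microglia CN, 3 in direct SPNs PUT, oligodendrocytes PUT, astrocytes CN, 4 in dopaminergic neurons, 7 in oligodendrocytes SN. With thinning there were 0 in other neurons PUT and microglia SN, 1 in eccentric SPNs CN, microglia PUT, microglia CN, 2 in direct SPNs PUT and direct SPNs CN, 3 in dopaminergic neurons, other neurons CN, indirect SPNs PUT, indirect SPNs CN, 10 in oligodendrocytes SN. With a minimum of 50 UMIs there were 3 in other neurons PUT, OPCs PUT, OPCs CN, 4 in microglia SN, 5 in OPCs SN and astrocytes PUT, 7 in other neurons SN, eccentric SPNs CN, microglia PUT, 11 in oligodendrocytes CN, 16 in oligodendrocytes PUT. With a minimum of 200 there were 1 in indirect SPNs PUT, eccentric SPNs PUT, OPCs SN, microglia SN, 2 in direct SPNs PUT, eccentric SPNs CN, microglia CN, 3 in astrocytes CN, 5 in indirect SPNs CN and oligodendrocytes PUT. With nuclei of at least 1000 genes there were 0 in microglia SN, 2 in microglia CN, 3 in oligodendrocytes PUT. Cluster by cluster there were 4 in microglia SN, 5 in other neurons SN, 15 in eccentric SPNs CN, and with the mean over nuclei 6 in other neurons SN. The cluster value of eccentric SPNs CN rested on 1 cluster with 11 CT and 193 PD nuclei, and that of microglia SN on 1 with 662 and 151. With nuclei of 2 lineages added there were 1 in OPCs PUT, 6 in microglia SN.

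The direction turned for 5 named log2 ratios. With nuclei of 2 lineages added these were KCNH8 in PUT direct SPNs (-0.48) and indirect SPNs (-0.0092) and KCNK10 in PUT direct SPNs (-0.016). With at least 1000 genes they were KCNIP2 (0.65) and KCNRG (0.86) in CN oligodendrocytes. Of the other values of named members under the alternatives, 711 moved by less than the counting interval and 73 by more. Clustering with the members kept in, leaving out doublet removal, a minimum of 200 genes or centring on the median of all genes moved no per-comparison count by over 1.5 times. Fits within clusters gave no value for eccentric SPNs of PUT, where no cluster held 10 nuclei of both libraries, and thinning, a minimum of 200 UMIs or of 1000 genes gave none for astrocytes of PUT, and the last none for microglia of PUT.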
